A study of Homo sapiens with 12 samples.

Results

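The 10 genes described here encode or control the contractile actin apparatus: ACTA2, TAGLN, CNN1, MYL9, MYLK, TPM1, TPM2, CALD1, ACTN1 and SRF. They were chosen by symbol, and all 10 were found among the 62754 Ensembl genes of a count table from PC9 cells. All 10 also passed the filter on low counts that left 17115 genes for testing. PC9 is a human lung adenocarcinoma cell line with a mutant, drug-sensitive EGFR, and the study used a subclonal line of it. RNA was sequenced from 12 cultures in 4 groups of 3, each split from a common flask and then grown apart, so p-values measure the spread between such cultures. Untreated WT cells carry intact TDP1, a DNA repair enzyme that releases trapped topoisomerase I, and received no drug. DTC (drug-tolerant cells) are TDP1 WT cells after 7 days in 1 µM erlotinib, an inhibitor of the EGFR kinase. DTEC (drug-tolerant expanded cells) are TDP1 WT cells after 28 days in the same dose. KO2 is a TDP1 knockout line that received no drug, so it stands for the knockout through a single line.

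Contraction in non-muscle and smooth muscle cells depends on myosin II pulling on actin filaments. The myosin light chain kinase MYLK phosphorylates the regulatory light chain, of which MYL9 is the form typical of smooth muscle, and this switches the motor on. Tropomyosins, caldesmon (CALD1) and calponin (CNN1) lie along the filament and govern access of myosin, transgelin (TAGLN) and α-actinin (ACTN1) bundle filaments, and ACTA2 is the α-actin of smooth muscle and myofibroblasts. The transcription factor SRF binds a sequence called the CArG box in front of many of these genes. Its partners MRTFA and MRTFB are held in the cytoplasm by actin monomers and are released when filaments form, whereas its partners of the TCF family (ELK1, ELK3, ELK4) respond to ERK signalling.

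RefSeq promoter windows, 250 bases before to 50 bases after a transcription start on GRCh38.p14, were at hand for 8 of the 10 genes, 17 windows in all. No window was at hand for TAGLN or MYL9, so these genes were not searched. They were searched on both strands for the CArG box, which is 2 C, then 6 bases that are each A or T, then 2 G. It was found in 3 of the 17 windows, those of MYLK, ACTN1 and SRF, and in 1.29% of the 35116 windows of that length in the whole table. The 3 windows are printed because they hold the letters that SRF recognises, 5′ to 3′ on the strand of the gene and with the boxes in capitals. A match describes the sequence and is not evidence of binding in these cells.
MYLK, chr3:123620499-123620798, minus strand: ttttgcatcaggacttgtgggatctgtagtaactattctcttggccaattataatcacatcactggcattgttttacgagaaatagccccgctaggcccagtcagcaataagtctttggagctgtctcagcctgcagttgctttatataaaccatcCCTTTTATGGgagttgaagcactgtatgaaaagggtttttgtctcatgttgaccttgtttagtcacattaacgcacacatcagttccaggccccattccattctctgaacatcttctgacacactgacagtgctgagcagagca
ACTN1, chr14:68977517-68977816, minus strand: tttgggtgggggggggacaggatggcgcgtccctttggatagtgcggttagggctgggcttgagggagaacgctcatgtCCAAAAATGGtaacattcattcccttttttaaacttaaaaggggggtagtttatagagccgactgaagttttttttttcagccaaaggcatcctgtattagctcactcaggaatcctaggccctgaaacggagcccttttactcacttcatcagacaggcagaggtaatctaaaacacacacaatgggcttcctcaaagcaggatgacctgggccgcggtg
SRF, chr6:43171019-43171318, plus strand: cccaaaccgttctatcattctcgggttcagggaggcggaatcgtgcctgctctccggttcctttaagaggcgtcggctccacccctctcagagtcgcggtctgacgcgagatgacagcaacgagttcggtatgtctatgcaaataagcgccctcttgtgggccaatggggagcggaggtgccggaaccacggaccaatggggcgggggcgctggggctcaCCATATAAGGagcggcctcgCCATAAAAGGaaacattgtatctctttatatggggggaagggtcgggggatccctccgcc
The MYLK box CCTTTTATGG began 94 bases before an internal start, which lies 263783 bases inside the 5′ end of the gene and 10499 bases from its 3′ end (GENCODE 29). This window is thus not the start of the whole gene, for which no window was at hand. The ACTN1 box CCAAAAATGG began 171 bases before a start that lies 1874 bases inside the 5′ end, one of 4 windows of that gene. SRF held a pair of boxes, CCATATAAGG from 30 bases and CCATAAAAGG from 10 bases before the start. With 1 substitution allowed, 6 of the 17 windows and 18.9% of all windows had a match. The added matches included CCCTATATGG and CCTTGTTTGG, which began 121 and 71 bases before a start of ACTA2.

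Library totals ran from 25572691 to 38373679 estimated counts. TDP1 RNA was read beside the label of the knockout. It stood at 25.1 to 28.1 CPM in untreated WT and at 10.1 to 11.3 CPM in KO2, and at 12.7 to 15.7 CPM in DTC and 25.4 to 28.4 CPM in DTEC. TDP1 RNA was thus also lower in DTC, whose cells are TDP1 WT, so a lower level does not by itself establish the label. CPM (counts per mega-count of the library) is a count relative to depth, here with library totals corrected with TMM, a method that sets the bulk of genes to no change. Scaling by total counts alone would shift the median gene of DTC against untreated WT by 0.36 (log2) and that of DTEC by 0.17, so directions are relative to the TMM reference. Epithelial markers summed to 11256 to 11854 CPM (untreated WT), 6741 to 7924 (DTC), 9734 to 12722 (DTEC) and 11905 to 12781 (KO2), and none of the 8 was at 0.

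Markers of other contractile or stromal cells were read beside these genes. The 10 fibroblast markers summed to 8.03 to 8.998 CPM (untreated WT), 55.1 to 57.9 (DTC), 11.2 to 14.3 (DTEC) and 13.5 to 15.1 (KO2). Of these 10, the number that never passed 3 counts in any library was 8 (untreated WT), 5 (DTC), 7 (DTEC) and 8 (KO2), and COL1A1 was the 1 marker tested. COL1A1, a fibrillar collagen chain, gave 55.7 ± 1.32 CPM of the DTC sum (SD, n = 3). Its log2 fold change against untreated WT was 2.74 in DTC, 0.58 in DTEC and 0.73 in KO2 (edgeR adjusted p 1.93e-10, 0.000638 and 0.00194), and -2.17 from DTC to DTEC (2.63e-09). Past 3 counts in DTC there were also LUM, PDGFRA, PDGFRB and FAP, at means of 0.43, 0.12, 0.198 and 0.097 CPM, where LUM, PDGFRA and FAP were at 0 in untreated WT. COL1A2, COL3A1 and DCN were at 0 in untreated WT and had at most 2 counts per library in DTC.

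The 11 smooth muscle markers reported here summed to 49.1 to 65.1 CPM (untreated WT), 57.5 to 62.4 (DTC), 27.8 to 42.5 (DTEC) and 63.99 to 65.5 (KO2). Most of each sum was SMTN, a smoothelin also made outside muscle, at means of 53.1 CPM (untreated WT), 41.6 (DTC), 28.1 (DTEC) and 57.2 (KO2). The number that never passed 3 counts was 6 (untreated WT), 3 (DTC), 5 (DTEC) and 7 (KO2), and PLN and PGM5 were at 0 in both erlotinib groups. Of the 5 tested, 4 were higher and 0 lower in DTC, where 34.0% of all genes were higher and 33.3% lower. The 4 were the intermediate filament proteins SYNM and DES, the potassium channel subunit KCNMB1 and the actin-binding SYNPO2. SYNM was at 15.9 CPM in DTC against 5.196 in untreated WT (log2 fold change 1.61, edgeR adjusted p 3.6e-06). DES was at 0.66 against 0.094 CPM (adjusted p 0.00296) and KCNMB1 at 0.51 against 0.058 CPM (adjusted p 0.00183). SYNPO2 had 9 to 14 counts per library in DTC and 0 in untreated WT (adjusted p 0.000495). DES, KCNMB1 and SYNPO2 were too low in untreated WT to pass the filter on low counts there, and passed through groups where they were higher. Markers low in every group were not tested. The count of 4 higher among the 5 tested is thus shaped by the filter and cannot be weighed against the share of all genes. MYH11, the smooth muscle myosin heavy chain, was not tested and averaged 0.082 CPM in untreated WT and 0.17 CPM in DTC. In DTEC against untreated WT 1 of the 5 was higher (SYNPO2) and 1 lower (SMTN), from DTC to DTEC 4 were lower, and in KO2 none was called. The shares of all genes called in these comparisons were 52.3%, 55.4% and 4.31% in that order.

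The 7 leukocyte and endothelial markers summed to 58.5 to 61.8 CPM (untreated WT), 43.7 to 50.9 (DTC), 122 to 142 (DTEC) and 76.2 to 77.7 (KO2), led by PECAM1 and CDH5. Of the 4 tested, 2 were higher and 1 lower in DTC, where 34.0% of all genes were higher and 33.3% lower. Against untreated WT, 2 were higher and 0 lower in DTEC (26.0% and 26.3% of all genes), and 1 higher and 0 lower in KO2 (2.76% and 1.55%). From DTC to DTEC 1 was higher and 1 lower (28.8% and 26.6%). What part these markers have in the results was not tested. In a bulk library fewer cells expressing a gene and less RNA per cell cannot be told apart.

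**Figure D1:**
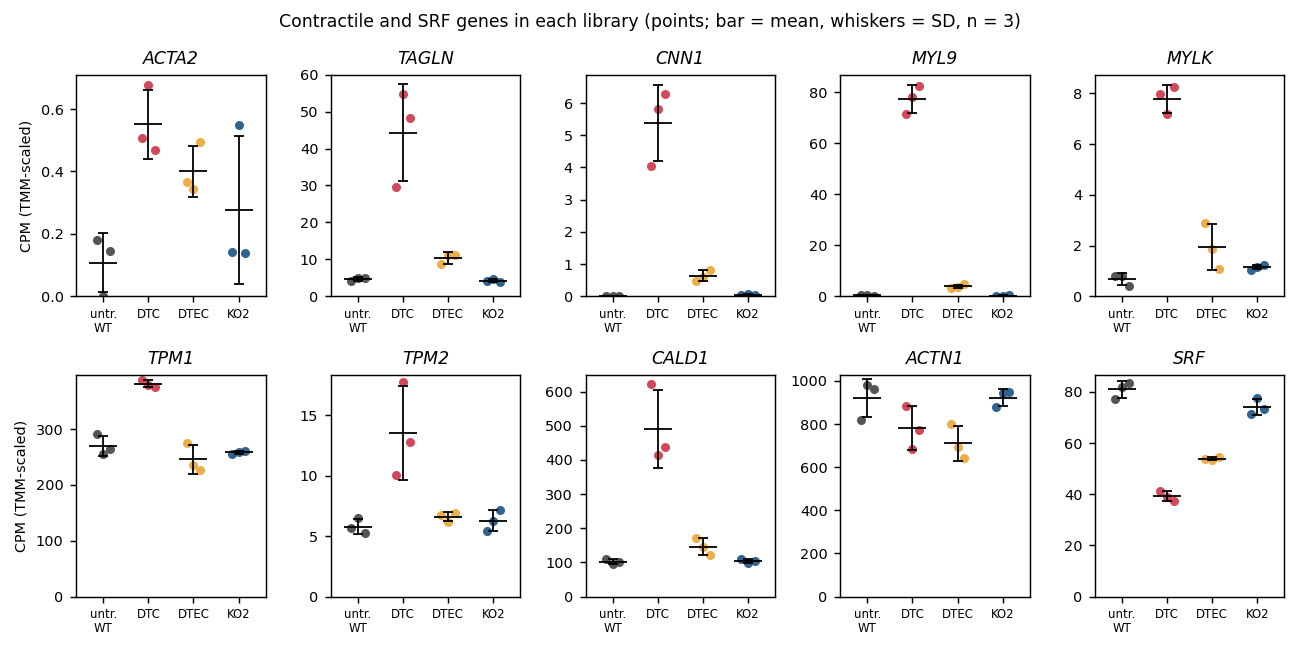
CPM (vertical axis, linear from 0, a separate scale for each gene) of the 10 genes in each of the 12 libraries, by group (horizontal axis; untr. WT is untreated WT); points are libraries, the bar is the mean and whiskers are the SD of 3 libraries. Of the 10 genes, 8 are highest in DTC, MYL9 at 71.7 to 82.5 CPM against 0.231 to 0.337 in untreated WT, while SRF is lowest there, at 37.4 to 41.2 CPM.

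In untreated WT cells the set was split between abundant and nearly silent genes. Per kilobase of exon, ACTN1 had the highest level, 86.6 ± 8.35 CPM per kilobase (SD, n = 3), followed by TPM1 at 20.97 ± 1.41, SRF at 19.3 ± 0.801 and CALD1 at 10.4 ± 0.798. TPM2 and TAGLN lay far lower, at 1.78 ± 0.196 and 1.18 ± 0.131 CPM per kilobase. MYL9 (0.106 ± 0.021), ACTA2 (0.036 ± 0.032) and MYLK (0.030 ± 0.011) were the lowest of the genes detected, and CNN1 had no counts. TPM1 and SRF did not differ beyond their spread on this scale, nor did ACTA2 and MYLK, whereas the step from SRF to CALD1 was larger than the spread of either gene. Exon lengths are those of GENCODE 29, and the 22167 bases of MYLK sum many alternative exons, which lowers its value per kilobase.

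Set against untreated WT, DTC show the genes after 7 days of EGFR inhibition. Of the 10, 8 rose, 1 fell and 1 was not called (edgeR quasi-likelihood test, adjusted p under 0.05 over all 17115 genes). Over all genes tested, 67.3% were called, 34.0% higher and 33.3% lower, so a call alone was common in this comparison and the sizes carry more of the description. ACTA2, CNN1 and MYL9 were too low in untreated WT and KO2 to pass the filter there, and passed through the erlotinib groups, where they were higher. That these genes were tested and called higher is thus not independent of the filter. The median log2 fold change of the 10 genes was 2.27, beside 0.055 over all genes. In each of the 8 genes that rose, the 3 DTC libraries lay above the 3 untreated WT libraries, which was so for 35.1% of all genes, and the SRF libraries lay below, as in 33.8%.

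Among the genes with counts in every untreated WT library, the regulatory light chain MYL9 had the largest fold change. MYL9 (ENSG00000101335, chromosome 20, 36541484 to 36551447, GRCh38) stood at 0.329, 0.337 and 0.231 CPM (untreated WT), 71.7, 78.1 and 82.5 (DTC), 3.41, 3.67 and 4.64 (DTEC) and 0.246, 0.162 and 0.387 (KO2). The DTC libraries were close together and far above all others, DTEC was intermediate, and KO2 overlapped untreated WT. The log2 fold change in DTC was 8.01 (SE 0.211, edgeR adjusted p 8.29e-12), and by p-value MYL9 was the second of the 17115 genes. In DTEC it was still 3.71 above untreated WT (SE 0.227, adjusted p 2.5e-08).

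RNA of the gene for the kinase that acts on this light chain rose as well, from a low level. Counts are gene totals, so transcripts from the internal start described above are not separated from those of the whole gene. MYLK (ENSG00000065534, chromosome 3, 123610049 to 123884331) was at 0.806, 0.809 and 0.404 CPM (untreated WT), 7.98, 7.18 and 8.24 (DTC), 2.89, 1.87 and 1.07 (DTEC) and 1.05, 1.16 and 1.24 (KO2). DTC was apart from every other group, and the DTEC libraries were spread widely and overlapped KO2. Its log2 fold change was 3.54 in DTC (SE 0.331, edgeR adjusted p 3.46e-07) and 1.53 in DTEC (SE 0.338, adjusted p 0.00163).

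Calponin and transgelin, filament-binding proteins used as markers of smooth muscle differentiation, followed the same order of groups. CNN1 (ENSG00000130176, chromosome 19, 11538717 to 11550323) had 0 counts in all 3 untreated WT libraries, where 3 counts would be 0.0865 to 0.101 CPM. It was at 4.06, 5.83 and 6.27 CPM in DTC, 0.487, 0.611 and 0.824 in DTEC, and at most 2 counts per library in KO2. Against the untreated WT floor of 3 counts per library, CNN1 was at least 58.3-fold higher in DTC and at least 6.93-fold higher in DTEC (edgeR adjusted p 1.29e-08 and 5.44e-06). These floors cover counting error only, since the labels describe no molecular identifiers. KO2 and untreated WT were both at or under the floor, so no fold is given for that pair.

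TAGLN (ENSG00000149591, chromosome 11, 117199321 to 117204782) was at 4.03, 4.96 and 4.87 CPM (untreated WT), 29.5, 54.8 and 48.4 (DTC), 8.62, 11.3 and 11.2 (DTEC) and 4.18, 4.76 and 3.79 (KO2). DTC replicate 1 was the lowest of its group but above every DTEC library, and the groups other than KO2 and untreated WT did not overlap. The log2 fold change was 3.26 in DTC (SE 0.211, edgeR adjusted p 1.01e-08) and 1.16 in DTEC (SE 0.207, adjusted p 0.000316). ACTA2 (ENSG00000107796, chromosome 10, 88935074 to 88991339), the best known smooth muscle marker of the set, barely reached detection. It was at 0.179, 0 and 0.144 CPM (untreated WT), 0.507, 0.677 and 0.469 (DTC), 0.365, 0.344 and 0.495 (DTEC) and 0.140, 0.550 and 0.138 (KO2), with at most 23 counts in any library. DTC and DTEC were above untreated WT, and KO2 overlapped all 3 other groups. Its log2 fold change of 2.27 in DTC (SE 0.706, edgeR adjusted p 0.0107) and of 1.83 in DTEC (SE 0.722, adjusted p 0.0461) thus rest on few reads. The DTEC call was lost when untreated WT replicate 2 or 3, or any 1 DTEC library, was left out (adjusted p 0.0695 to 0.125).

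Caldesmon, which coats the filament, changed more than the tropomyosins in DTC. CALD1 (ENSG00000122786, chromosome 7, 134744252 to 134970728) was at 110, 94.1 and 102 CPM (untreated WT), 623, 413 and 438 (DTC), 171, 146 and 123 (DTEC) and 109, 96.8 and 103 (KO2). DTC replicate 1 was the highest library here, the opposite of TAGLN, and no library of DTC overlapped another group. The log2 fold change was 2.27 in DTC (SE 0.159, edgeR adjusted p 1.91e-08) and 0.52 in DTEC (SE 0.153, adjusted p 0.0105). Without DTEC replicate 1 the DTEC value was 0.42 and was no longer called (adjusted p 0.0509).

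The tropomyosins moved less. TPM1 (ENSG00000140416, chromosome 15, 63042632 to 63071915) was at 290, 255 and 264 CPM (untreated WT), 389, 379.5 and 376 (DTC), 276, 236 and 227 (DTEC) and 256, 259 and 261 (KO2). Its DTC libraries were tightly grouped above all others, which overlapped each other, and the log2 fold change was 0.50 in DTC (SE 0.0955, edgeR adjusted p 0.000339) and -0.13 in DTEC (adjusted p 0.258). TPM2 (ENSG00000198467, chromosome 9, 35681992 to 35690121) was at 5.67, 6.48 and 5.22 CPM (untreated WT), 10.1, 17.7 and 12.8 (DTC), 6.73, 6.19 and 6.93 (DTEC) and 5.44, 6.28 and 7.13 (KO2). Again only DTC stood apart, with a log2 fold change of 1.23 (SE 0.186, edgeR adjusted p 4.07e-05) against 0.19 in DTEC (adjusted p 0.402). The table holds gene totals, so the smooth muscle and non-muscle splice forms of TPM1, TPM2 and CALD1 are not separated.

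ACTN1 and SRF were not among the genes that rose. ACTN1 (ENSG00000072110, chromosome 14, 68874143 to 68979440), which cross-links filaments at adhesions, was at 819, 981 and 961 CPM (untreated WT), 885, 683 and 773 (DTC), 800, 692 and 642 (DTEC) and 878, 942 and 947 (KO2). Untreated WT and DTC overlapped, and the log2 fold change in DTC was -0.24 (95% interval -0.49 to 0.018, edgeR adjusted p 0.0923). Scaling by total counts gave 0.12 and by the upper quartile 0.048, and leaving out DTC replicate 1 gave -0.30, called lower (adjusted p 0.0178). In DTEC it was -0.37 (SE 0.12, adjusted p 0.0178), a call not kept under total counts (0.17) or upper quartile scaling (0.0713), nor when replicate 2 or 3 of either group was left out (0.0715 to 0.0892). None of the 12 deposited values of ACTN1 or TPM1 was a whole number, so part of their reads was shared among features.

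SRF (ENSG00000112658, chromosome 6, 43171299 to 43181507), the transcription factor of the set, went the other way. It was at 77.2, 82.1 and 83.6 CPM (untreated WT), 41.2, 39.1 and 37.4 (DTC), 53.7, 53.4 and 54.5 (DTEC) and 71.4, 77.5 and 73.5 (KO2). DTC was lowest, DTEC was between DTC and the untreated groups with no overlap on either side, and KO2 overlapped untreated WT in 1 library. SRF fell to 48.4% of untreated WT in DTC (log2 fold change -1.05, SE 0.0852, edgeR adjusted p 8.48e-08) and to 66.5% in DTEC (-0.59, SE 0.0844, adjusted p 4.92e-05).

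**Figure D2:**
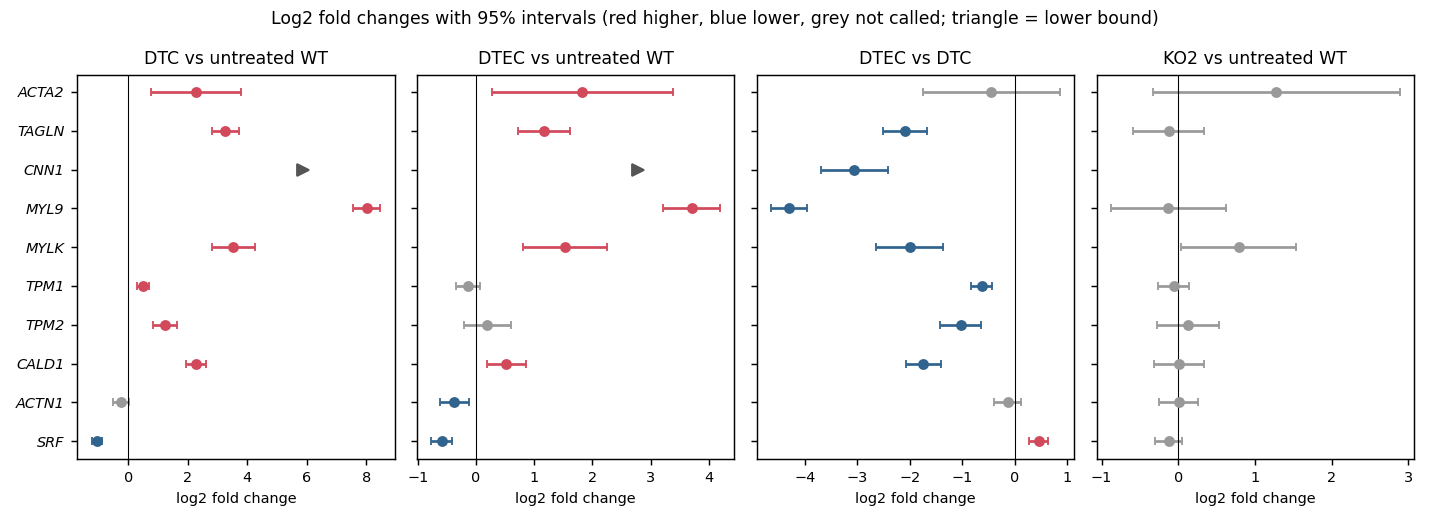
Log2 fold change (horizontal axis, first group minus second) of each of the 10 genes (rows) in the 4 comparisons, with 95% intervals; red is called higher, blue called lower, grey not called, and triangles are lower bounds for CNN1, which had no counts in untreated WT and has no value for KO2. In DTC against untreated WT the values run from -1.05 for SRF to 8.01 for MYL9, and in KO2 no gene is called.

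DTEC, set against the same untreated WT libraries, show the genes after 28 days. Here 6 of the 10 genes were higher (ACTA2, TAGLN, CNN1, MYL9, MYLK and CALD1), 2 were lower (ACTN1 and SRF) and TPM1 and TPM2 were not called, where 52.3% of all genes were called, 26.0% higher and 26.3% lower. Libraries did not overlap in these 8 genes, as in 31.1% of all genes on the higher side and 31.3% on the lower side. The median was 0.84, beside 0.018 over all genes. The 6 higher genes include ACTA2, CNN1 and MYL9, which passed the filter on low counts only through the erlotinib groups. This comparison shares the untreated WT libraries with that of DTC, so the size of the change at the later time was read from DTEC and DTC directly.

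In DTEC against DTC, 7 of the 10 genes were lower, SRF was higher and ACTA2 and ACTN1 were not called, where 55.4% of all genes were called, 26.6% lower and 28.8% higher. MYL9 was 19.7-fold lower in DTEC (log2 fold change -4.30, SE 0.158, edgeR adjusted p 1.41e-10). CNN1 was 8.32-fold lower (-3.06, adjusted p 3.22e-06), TAGLN 4.27-fold (-2.09, adjusted p 9.98e-07), MYLK 4.01-fold (-2.01, adjusted p 6.18e-05) and CALD1 3.35-fold (-1.75, adjusted p 5.46e-07). TPM2 (-1.03, adjusted p 0.000293) and TPM1 (-0.63, adjusted p 7.28e-05) were lower by less. SRF was higher by 0.46 (adjusted p 0.000398), and each of the 8 called genes kept its 3 DTEC libraries clear of the 3 DTC libraries, as in 27.7% of all genes on the lower side and 29.0% on the higher side. ACTA2 had a difference of -0.45 (95% interval -1.75 to 0.86) and ACTN1 of -0.13 (-0.39 to 0.12), the latter called lower with total counts alone (-0.32, adjusted p 0.0357) and by upper quartile scaling (-0.31, adjusted p 0.0337).

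KO2, set against untreated WT, bears on loss of TDP1 without drug. The edgeR test called 0 of the 10, as did DESeq2, where edgeR called 4.31% of all genes, 2.76% higher and 1.55% lower. At an unadjusted p under 0.05 there were 2, CNN1 and MYLK. MYLK was 1.15 ± 0.0961 CPM in KO2 against 0.673 ± 0.233 in untreated WT (SD, n = 3), a log2 difference of 0.79 with a 95% interval of 0.038 to 1.53 before adjustment (adjusted p 0.271), and all 3 KO2 libraries were above all 3 untreated WT libraries, as in 15.8% of all genes, with 19.9% on the other side. The intervals were narrow for the abundant genes: -0.27 to 0.14 for TPM1, -0.32 to 0.34 for CALD1, -0.25 to 0.26 for ACTN1 and -0.31 to 0.053 for SRF. They were wide for ACTA2 (-0.33 to 2.89), MYL9 (-0.88 to 0.62) and TAGLN (-0.59 to 0.34), so changes of those sizes in KO2 were not resolved.

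Paralogs are the related genes of the same protein families, most of them the non-muscle forms. Of 19 paralogs, 14 were tested, and in DTC 9 were higher and 4 lower, with a median of 0.64. The number of paralogs lower was 2 with total counts alone and 3 by upper quartile scaling. Over all genes tested, 34.0% were higher and 33.3% lower in DTC. ACTG2, the γ-actin of smooth muscle, was at 5.94, 6.58 and 5.31 CPM in untreated WT and at 53.6, 50.7 and 48.4 in DTC (log2 fold change 3.10, SE 0.165, edgeR adjusted p 1.45e-09). It was at 4.87, 4.85 and 3.02 CPM in DTEC and at 9.62, 7.70 and 9.21 in KO2. DTC stood far above the other groups, the DTEC libraries lay below those of untreated WT and the KO2 libraries above them.

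The ACTG2 difference between DTEC and untreated WT was -0.49 (adjusted p 0.0247) and was not kept under total counts, upper quartile scaling or a fit of the compared groups alone, nor when replicate 1 or 2 of untreated WT or replicate 3 of DTEC was left out (adjusted p 0.058 to 0.125). From DTC to DTEC ACTG2 moved by -3.59 (adjusted p 1.21e-09). In KO2 it was 0.57 above untreated WT without a call (adjusted p 0.063), yet 6 alternatives called it: DESeq2, total counts, both other filters, the compared groups alone and the replicate block (0.00654 to 0.0494). The cytoplasmic actin ACTB was lower at both times. It had a log2 fold change of -0.81 in DTC and -0.82 in DTEC (adjusted p 1.02e-05 in DTEC), from 8403 ± 335 to 4760 ± 520 CPM in DTEC (SD, n = 3). ACTG1 had -0.59 in DTC, a call lost with total counts alone (-0.24, adjusted p 0.0584). TPM3, a cytoskeletal tropomyosin, had -0.46 in DTC (adjusted p 0.000427), a call lost with total counts alone (-0.10, adjusted p 0.31) and by the upper quartile (-0.17, adjusted p 0.112).

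Light chains and calponins of non-muscle cells rose in DTC too. MYL6, the essential light chain, was at 325, 276 and 275 CPM in untreated WT and at 695, 1398 and 1267 in DTC (1.94, SE 0.201, edgeR adjusted p 1.35e-06). DTC replicate 1 was the lowest DTC library of MYL6, as it was of TAGLN, CNN1, MYL9, TPM2, MYL12A, MYL12B and CNN3. The regulatory light chain MYL12A rose by 1.32 and the calponins CNN2 and CNN3 by 0.85 and 0.98 (adjusted p 7.52e-07, 1.04e-06 and 1.81e-05). MYL9 made up 0.0528% ± 0.0112 of the regulatory light chain RNA (untreated WT), 7.31% ± 1.66 (DTC), 0.629% ± 0.134 (DTEC) and 0.0526% ± 0.0224 (KO2), per kilobase of exon over MYL9, MYL12A and MYL12B (SD, n = 3). TAGLN made up 0.408% ± 0.062 of transgelin RNA in untreated WT and 3.04% ± 0.714 in DTC on the same scale, and CNN1 0.988% ± 0.113 of calponin RNA in DTC. The smooth muscle forms were thus minor parts of these families in each group.

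In DTEC against untreated WT the tested paralogs split into 1 higher (MYL12A, 0.35, edgeR adjusted p 0.0361) and 6 lower. The shares of all genes were 26.0% higher and 26.3% lower. The MYL12A call was lost when untreated WT replicate 2, untreated WT replicate 3, DTEC replicate 1 or DTEC replicate 2 was left out (adjusted p 0.0524 to 0.105). TPM3 had a log2 fold change of -0.76 (SE 0.0905, edgeR adjusted p 9.47e-06). From DTC to DTEC 10 of 14 were lower, as were 26.6% of all genes, and MYL6 moved by -1.78 (edgeR adjusted p 6.43e-06). ACTG1 (0.30, adjusted p 0.0242) and ACTN4, the other non-muscle α-actinin (0.32, adjusted p 0.0298), were called higher. Neither of these calls was kept under total counts (0.365 and 0.36) or upper quartile scaling (0.32 and 0.295), nor when replicate 2 or 3 of either group was left out (0.0654 to 0.247). In KO2, where edgeR called 4.31% of all genes, it called none of the 14. Of the 14, 2 had an unadjusted p under 0.05, and DESeq2 called 1 higher and 1 lower.

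**Figure D3:**
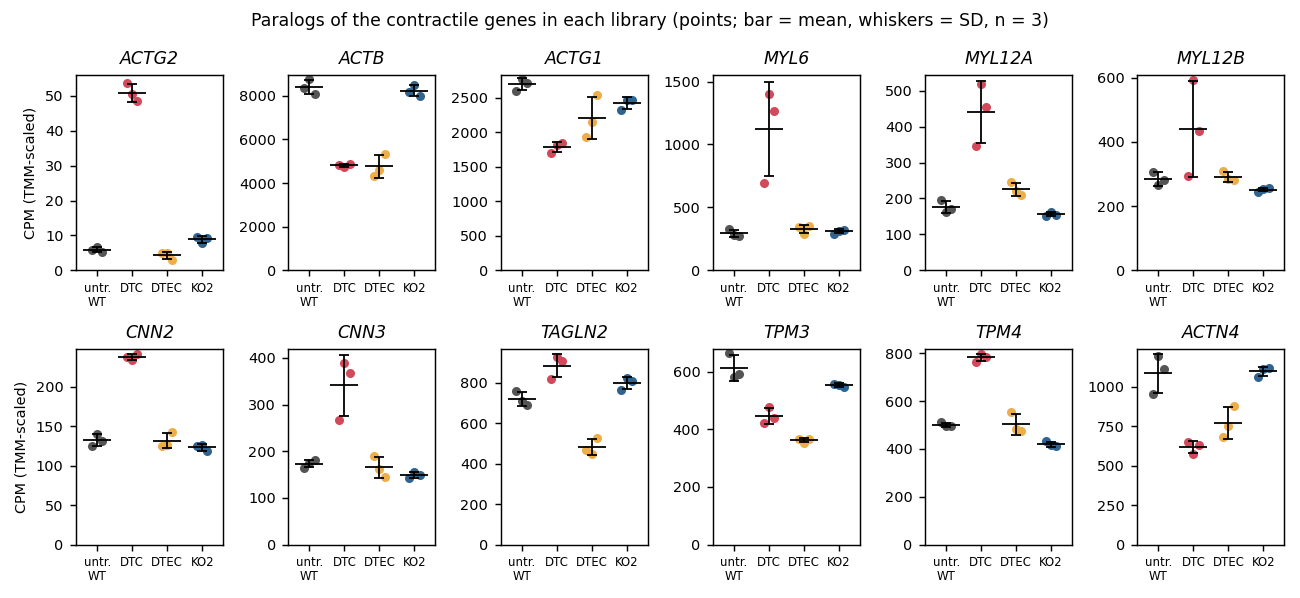
CPM (vertical axis, linear from 0, a separate scale for each gene) of 12 abundant paralogs in the 12 libraries, by group (horizontal axis; untr. WT is untreated WT); points are libraries, the bar is the mean and whiskers are the SD of 3 libraries. ACTG2 and MYL6 are highest in DTC, whereas ACTB falls to 4760 CPM in DTEC, and DTC replicate 1, the left point of its group, is lowest of the DTC libraries for MYL6.

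The partners of SRF were counted from a list of 10, of which 9 were tested. MYOCD, the muscle-restricted coactivator, had 0 counts in all 12 libraries. In DTC, where 34.0% of all genes were higher and 33.3% lower, 3 of the 9 were higher and 5 lower (median -0.40). With total counts alone 3 were higher and 3 lower. MRTFA was at 40.4, 51.2 and 46.2 CPM (untreated WT), 73.2, 67.3 and 80.0 (DTC), 35.8, 42.9 and 45.3 (DTEC) and 50.9, 57.6 and 53.2 (KO2). MRTFA was thus highest in DTC (log2 fold change 0.68, SE 0.118, edgeR adjusted p 0.000151), and MRTFB had the opposite sign (-0.62, adjusted p 0.00967), a call lost with total counts alone (-0.27, adjusted p 0.223) and the upper quartile (-0.34, adjusted p 0.112), and when DTC replicate 2 or 3 was left out (0.0741 and 0.0756). The TCF factor ELK3 fell from 119 to 40.4 CPM (-1.56, adjusted p 3.14e-08). CSRP1, a LIM protein of the smooth muscle cytoskeleton, rose from 3.28 to 22.8 CPM (2.80, adjusted p 3.03e-10).

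By 28 days 1 of these 9 was higher than in untreated WT (CSRP1, 2.37, adjusted p 5.5e-09) and 2 were lower, ELK1 (-0.41, adjusted p 0.0061) and CSRP2 (-0.79, adjusted p 0.0196). Both lower calls were lost with total counts alone (adjusted p 0.0813 and 0.0577), and that of CSRP2 also when replicate 1 or 2 of untreated WT or replicate 1 or 3 of DTEC was left out (0.0509 to 0.0935). From DTC to DTEC, 6 of the 9 were higher, among them ELK3 (1.59, edgeR adjusted p 7.3e-08) and ELK4 (1.15, adjusted p 0.000189), and 3 lower. The shares of all genes were 26.0% higher and 26.3% lower in DTEC against untreated WT, and 28.8% and 26.6% from DTC to DTEC. In KO2, where 4.31% of all genes were called, the 1 call among the 9 was CSRP1. It was at 0.456, 0.324 and 0.387 CPM against 3.58, 3.44 and 2.83 in untreated WT (-3.07, SE 0.171, edgeR adjusted p 2.42e-07). CSRP1 thus lay below untreated WT in KO2 and above it in both erlotinib groups.

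Other targets ascribed to MRTF and SRF were counted from a list of 18, of which 17 were tested. In DTC 12 were higher and 1, FHL1, was lower, with a median of 1.31, where 34.0% of all genes were higher and 33.3% lower. ANKRD1, a stretch-responsive gene that YAP also controls, was at 2.78, 3.37 and 2.97 CPM (untreated WT), 154, 169 and 168 (DTC), 40.2, 25.9 and 16.5 (DTEC) and 3.26, 2.72 and 3.46 (KO2). ANKRD1 rose in DTC (5.75, SE 0.282, edgeR adjusted p 1.69e-09), and CCN1, a matricellular protein, by 1.96 (adjusted p 5.63e-10). VCL, FLNA, PDLIM7 and LPP were not called in DTC by this fit. VCL was called higher with total counts alone (0.66, adjusted p 0.00307), with the upper quartile, with a filter at a mean of 1 CPM and without DTC replicate 2 (0.00479 to 0.0248). LPP (-0.42, adjusted p 0.143) was called lower with no count filter (0.00471), with the replicate block (0.0265) and without DTC replicate 1 (0.00174). FLNA (-0.32, adjusted p 0.0521) was called lower with no count filter (0.043) and without untreated WT replicate 1 (0.00972), and its value was 0.029 with total counts alone.

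In DTEC against untreated WT 7 of the 17 were higher and 6 lower (median 0.30), where 26.0% of all genes were higher and 26.3% lower. ANKRD1 was still higher (3.18, edgeR adjusted p 5.74e-07), and PDLIM7, a LIM protein of stress fibres, had a log2 fold change of -1.61 (adjusted p 0.00034). Between DTC and DTEC 14 of 17 were lower and 2 higher, where 26.6% of all genes were lower and 28.8% higher. ANKRD1 was at -2.57 (edgeR adjusted p 1.12e-06) and the matrix glycoprotein THBS1 at -2.35 (adjusted p 8.5e-08). In KO2, where 4.31% of all genes were called, the 1 call by this fit was FLNC, a filamin of muscle. It was at 0.667, 0.647 and 0.636 CPM against 3.61, 5.13 and 4.82 in untreated WT (-2.79, SE 0.211, adjusted p 4.68e-06), while in DTC FLNC was higher than in untreated WT (1.44, adjusted p 4.44e-06). MYH10, a non-muscle myosin heavy chain, was at 0.48 CPM in KO2 and 0.13 in untreated WT (1.81, adjusted p 0.0527), and was called higher by DESeq2, total counts, the upper quartile and the compared groups alone (0.0248 to 0.0489). FLNC and CSRP1 are named as the 1 call of their list in KO2, after their values were seen.

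Immediate-early genes are the ERK-responsive branch of SRF control. Of 10, 9 were tested. In DTC, where 34.0% of all genes were higher and 33.3% lower, 2 of the 9 were higher and 3 lower (median 0.53), or 3 higher and 2 lower with total counts alone. Among the lower, MCL1 (-0.28, adjusted p 0.0455) kept its call under 2 of 14 alternatives. FOS was at 22.4, 26.5 and 25.4 CPM (untreated WT), 3.04, 7.89 and 4.40 (DTC), 28.7, 34.3 and 41.5 (DTEC) and 26.4, 27.9 and 29.1 (KO2). FOS was lowest in DTC (-2.27, SE 0.253, edgeR adjusted p 3.17e-06) and higher in DTEC than in DTC (2.76, adjusted p 1.2e-06). The 2 called higher in DTC were FOSB and JUNB. FOSB (1.25, edgeR adjusted p 0.00445) kept its call under all 14 alternatives. JUNB (0.91, adjusted p 0.0487) lost its call with the compared groups fitted alone and when untreated WT replicate 1 or 3 or DTC replicate 2 or 3 was left out (adjusted p 0.0653 to 0.16). In DTEC against untreated WT, where 52.3% of all genes were called, the 1 call was EGR1 (2.10, edgeR adjusted p 0.000412). It went from 3.01 ± 0.76 to 12.9 ± 2.46 CPM (SD, n = 3). From DTC to DTEC, where 28.8% of all genes were higher and 26.6% lower, 4 of the 9 were higher and 1 lower. By total counts and by the upper quartile 2 were higher. Among the higher was IER2 (0.65, adjusted p 0.00886), a call not kept under total counts (0.0509) or upper quartile scaling (0.053), nor when DTEC replicate 3 was left out (0.0528). MCL1 (0.33, adjusted p 0.0275) was lost with total counts (0.315) and the upper quartile (0.233), and with any 1 of DTC replicates 2 and 3 and DTEC replicates 1 and 2 left out (0.114 to 0.183). The lower call, FOSB (-0.86, adjusted p 0.0393), was lost when the same libraries were left out (0.0572 to 0.114). In KO2, where edgeR called 4.31% of all genes, it called none of the 9. An unadjusted p under 0.05 was seen for 1, NR4A1 (1.10, edgeR adjusted p 0.0656). NR4A1 was called higher by DESeq2, total counts, the filter at a mean of 1 CPM and the compared groups alone (0.0188 to 0.0477), and JUNB with no count filter (0.01).

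**Figure D4:**
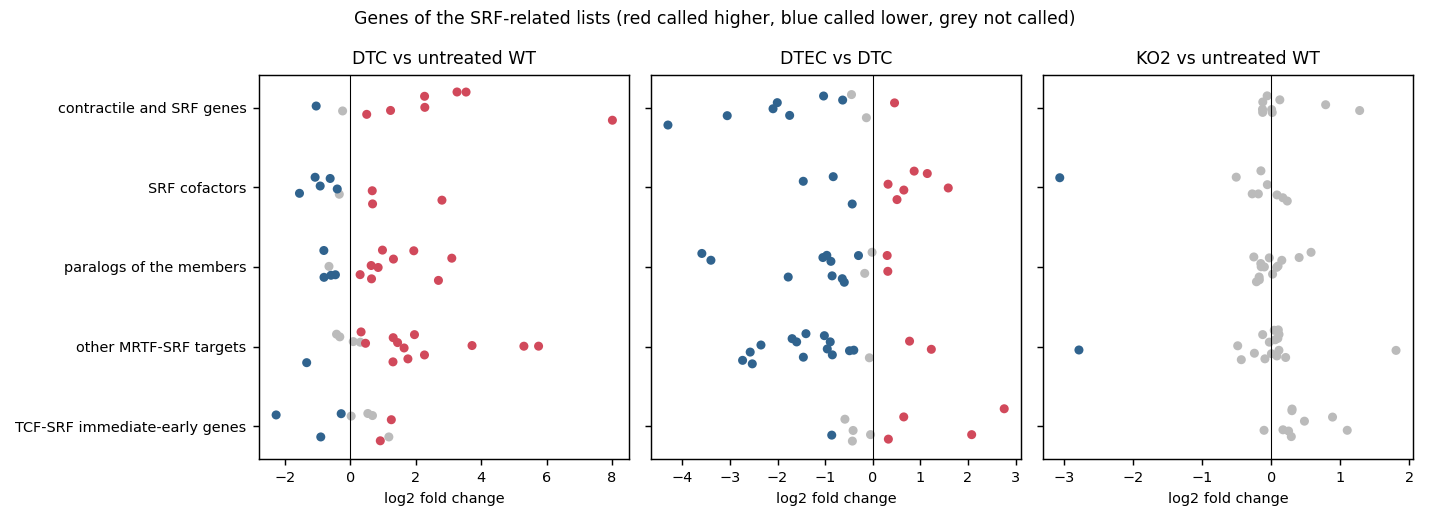
Log2 fold change (horizontal axis) of every tested gene of the 10 contractile and SRF genes and of 4 related lists (rows, with vertical scatter only to separate points) in 3 comparisons; red is called higher, blue called lower and grey not called, and CNN1 is left out of both comparisons with untreated WT, where it had no counts. Red points prevail among the contractile genes and other MRTF-SRF targets in DTC (8 of 10, of which CNN1 is not drawn, and 12 of 17) and blue points in DTEC against DTC (7 of 10 and 14 of 17), and in KO2 the blue points are CSRP1 and FLNC. Of all genes tested, 34.0% were higher in DTC, 26.6% lower in DTEC against DTC and 1.55% lower in KO2.

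Patterns like those of TAGLN and SRF were sought among 9716 other genes with a mean of at least 10 CPM, by the root-mean-square difference in log2 CPM over the 12 libraries after each gene was centred on its own mean. Nearest to TAGLN were MICAL1 (0.277), an enzyme that oxidises actin filaments, ENPP5 (0.282) and GBP3 (0.322). MICAL1 was at 6.17 CPM (untreated WT), 45.3 (DTC), 11.6 (DTEC) and 6.17 (KO2). Within the set the nearest to TAGLN was MYLK, at 0.598. Nearest to SRF were EDC4 (0.0682), ARIH2 (0.0727) and PYGB (0.0728), with EDC4 at 107 CPM (untreated WT), 53.8 (DTC), 69.95 (DTEC) and 104 (KO2). Within the set the nearest to SRF was ACTN1, at 0.324. The smallest distances inside and outside the set cannot be compared, because 9716 genes were searched outside it and far fewer inside. Likeness here is a description over 12 libraries.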

How the data were processed

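The authors deposited 1 table of expected counts, estimated reads per Ensembl gene that were not scaled to depth, with 1 column for each of 12 libraries and 0 columns of other samples. Per the labels' protocols, polyadenylated RNA was made into stranded libraries and read as 101 bp pairs, and all libraries form 1 batch. The submitters' processing notes name RSEM 1.3.1, Bowtie2 2.5.2, DESeq2 1.40.2 and GRCh38. The annotation release and the strand setting of the counting are not given in the sources used here. By GENCODE 29, exons of ACTA2 overlap FAS and exons of TAGLN overlap PCSK7, both on the opposite strand. Exons of MYLK and TPM1 overlap antisense genes, also on the opposite strand, and exons of ACTN1 overlap HMGN1P3 on the same strand.

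Expected counts were rounded and fitted in R 4.3.3 with edgeR 4.0.16. Genes were filtered with filterByExpr by group, which kept 17115 genes, and 1 model with a mean for each group, TMM scaling and robust quasi-likelihood F tests covered the 12 libraries. The Benjamini-Hochberg method adjusted p over those genes, with 0.05 as the limit of a call. SE is the absolute log2 fold change over the square root of F. The 95% intervals use the total degrees of freedom of the fit, residual and prior together. Alternatives were other scalings, other filters, DESeq2 1.42.0, the compared groups alone, a replicate block and leaving out each library. The fit was also run on simulated data in which 200 of 15629 genes were changed 2-fold in DTC. It recovered 96% of these and called 16 other genes. With so few genes changed, this run does not test the scaling in a comparison where 67.3% of genes are called.

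The 10 genes, the gene lists and the tests were chosen with earlier results of these data known. All 10 genes are named in every comparison, and from each list and comparison the 2 called genes with the largest change and a mean of at least 10 CPM. MRTFA, MRTFB, MYOCD, MYL12A, MYL12B, CNN2, CNN3, ACTG1, FHL1, VCL, FLNA, LPP, EGR1, CSRP2, FLNC, TPM3, ACTN4, MYH10, MCL1, FOSB and NR4A1, the marker genes, and ACTB, PDLIM7 and ACTG2 in comparisons outside that rule, were named after their values were seen. One substitution in the CArG box was likewise allowed after the exact search. One gene list and 1 of 12 smooth muscle markers are not reported here.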

Additional observations from a re-analysis of the deposited data

Results flagged for a closer look

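For 8 of the 10 genes the change against untreated WT differed between 7 and 28 days of erlotinib, by the direct test of DTEC against DTC (edgeR adjusted p under 0.05, as for 55.4% of all genes). On the log2 scale the difference was -4.30 for MYL9, -3.06 for CNN1, -2.09 for TAGLN, -2.01 for MYLK, -1.75 for CALD1, -1.03 for TPM2 and -0.63 for TPM1. For SRF it was 0.46. MYL9 was 8.01 above untreated WT at 7 days and 3.71 above it at 28 days, and SRF was at -1.05 and -0.59. The 7 and 28 day groups were separate cultures, and both were compared with the same untreated WT libraries. Groups of 3 libraries are too small for a test of single outlying libraries.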

How the results depend on the processing

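Of 554 values of the 10 genes under alternatives, 528 kept their direction and side of the threshold. Signs changed for ACTN1 in DTC (0.12 under total counts alone, 0.048 under upper quartile scaling), TPM1 in DTEC (0.036 with total counts alone) and, in KO2, TPM1 (0.0080 with total counts alone, 0.0097 without untreated WT replicate 1), ACTN1 (-0.059 without untreated WT replicate 1, -0.0074 without KO2 replicate 2), CALD1 (-0.021 without untreated WT replicate 2, -0.0092 without KO2 replicate 1) and MYL9 (0.13 without KO2 replicate 2). Leaving out single libraries in KO2 gave -0.077 to 0.0097 for TPM1, -0.059 to 0.073 for ACTN1, -0.021 to 0.084 for CALD1 and -0.52 to 0.13 for MYL9. None of those values was called. The number of the 10 genes called stayed at 8 to 10 in DTC, 6 to 8 in DTEC, 8 to 9 in DTEC against DTC and 0 in KO2 over all alternatives; a filter at a mean of 1 CPM removed ACTA2. Leaving out single libraries gave 9 to 10, 6 to 8, 8 and 0 in that order, with 6 in DTEC whichever library was left out except untreated WT replicate 1. Calls over all genes in KO2 were 738, but 1154 with DESeq2, 1147 with no count filter, 2656 with the compared groups fitted alone and 321 to 426 without single libraries. Under total counts alone the higher calls made up 68.4% of calls in DTC where TMM gave 50.5%, and the share went from 49.7% to 63.7% in DTEC and from 51.9% to 37.4% in DTEC against DTC. Upper quartile scaling moved the DTC share to 65.0% and that of DTEC against DTC to 38.7%. The causes of these changes were not tested. Replicate numbers are shared by the groups. Deviations of same-numbered libraries correlated at -0.03 to 0.179, and 7 of 12 libraries were closest to their own number. Whether the numbers pair the cultures was not tested, and the main fit did not use them. With the replicate block 9, 7, 8 and 0 of the 10 genes were called in DTC, DTEC, DTEC against DTC and KO2, ACTA2 in DTEC being the gene lost (adjusted p 0.0624). At these depths ACTA2, and CNN1 outside DTC, rest on few reads.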
